A study of Saccharomyces cerevisiae with 15 samples.

Results

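The genes described here encode assembly factors of the 60S ribosomal subunit of Saccharomyces cerevisiae. They were taken as 48 listed gene symbols, and all 48 had a probe set among the 5449 S. cerevisiae genes on the array. The large subunit is built in the nucleolus around rRNA precursors, on which a large set of non-ribosomal proteins acts in turn. RNA helicases, GTPases and a dynein-like ATPase remodel the particle, rRNA methyltransferases modify it, placeholder proteins hold sites for ribosomal proteins, and late factors carry it through the nuclear pore and are then released in the cytoplasm. In yeast these genes belong to the ribosome biogenesis regulon, which is transcribed strongly in growing cells and repressed together in starvation.

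The arrays hold RNA of 5 strains of S288C, a haploid laboratory strain of mating type α, with 3 arrays per strain from biological triplicates. The wild-type strain carried the control plasmid p416-TEF-G418, and the gcn5 null strain, in which a hygromycin B resistance gene replaces GCN5, carried the same plasmid. The other strains kept their native GCN5 and expressed gcn5-F221A, an allele without acetyltransferase activity, from a centromeric plasmid under mutant TEF promoters, whose strength relative to TEF was 0.32 in the weakest, 0.68 in the middle and 0.95 in the strongest. Every culture therefore held a G418 resistance plasmid and was kept under G418 at 200 µg/mL. The minimal medium held yeast nitrogen base at 6.7 g/L and glucose at 20 g/L, and cells were taken at an optical density of 0.4 to 0.5 after a start at 0.0045. Gcn5p is the catalytic subunit of histone acetyltransferase complexes, and the null strain lacks the whole protein while the mutant series adds a competitor without catalytic activity. Values are log2 signals made by RMA (background correction, quantile normalization and one summary per probe set), so a difference of 1 is a 2-fold difference in signal. A gene was called lower or higher at an adjusted p under 0.05 in limma, adjusted by Benjamini and Hochberg over 5449 genes. Signals are per amount of labelled RNA, and less RNA in every cell cannot be told apart from fewer cells that express a gene.

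The GCN5 probe set, which reads native and mutant transcripts together, followed the labels. The null strain had the lowest mean signal, 5.78 ± 0.05 (SD, n = 3), followed by wild-type with 8.92 ± 0.06. The strains with gcn5-F221A stood at 11.50 ± 0.07, 11.90 ± 0.16 and 13.13 ± 0.06 in the order of their promoters. All 4 markers of α cells stood at mean signals of 9.64 to 14.48 in wild-type, and the 7 markers of a cells at 5.94 to 8.40. In the null strain all 4 α markers were lower, by a median log2 difference of -2.58, and 3 of 7 a markers were higher. The part of this shift in the results below was not tested.

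In the gcn5 null strain the 60S assembly factors were lower as a group. Of 48 genes, 41 were lower and none was higher in limma, where 22.6% of all genes were lower and 18.4% higher. At an unadjusted p under 0.05, 43 members were lower, and no share of all genes is given for that threshold. The median log2 difference was -0.68, against -0.01 over all genes, and ran from -1.74 for DBP2 to 0.02 for TIF6. In 44 members all 3 null arrays lay below all 3 wild-type arrays, which held for 33.4% of all genes. In 41 members the null strain had the lowest mean of the 5 strains, which held for 34.5% of all genes. Of the called members 6 were over 2-fold lower, which was not counted over all genes. The remaining 7 genes, NOP15, BRX1, RPF2, RLP7, RLP24, TIF6 and NSA2, did not pass the test. Leaving out 1 array at a time gave 29 to 44 members, and 27 of the 41 were called in all 15 such fits.

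**Figure D1:**
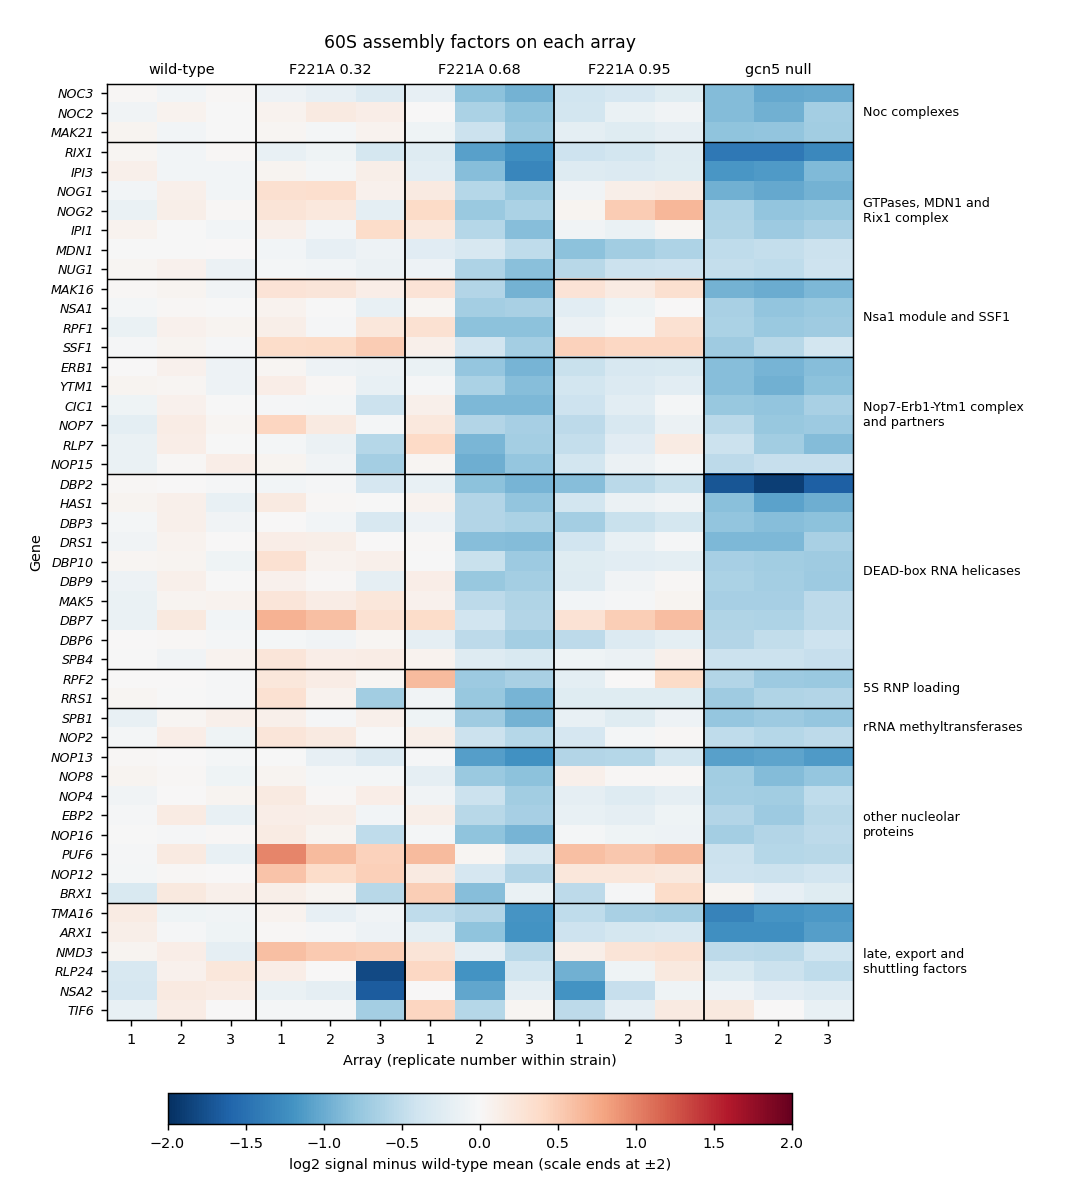
Each row is one of 48 genes, grouped by role, and each column one of 15 arrays, grouped by strain. Colour gives the log2 signal minus the gene's mean over the 3 wild-type arrays (blue lower, red higher). The null arrays are blue in nearly every row, arrays 2 and 3 at strength 0.68 look like them, and array 1 at 0.68 has genes below and genes above wild-type.

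The DEAD-box RNA helicases unwind or release RNA in the early and middle particles, and all 10 were lower in the null strain, with a median log2 difference of -0.69. DBP2, a helicase that also works in mRNA decay and mRNP assembly, had wild-type signals of 12.97, 12.95 and 12.93. Its null signals were 11.24, 11.06 and 11.32, which is 3.35-fold lower (log2 difference -1.74 ± 0.18 SE, adjusted p = 1.28e-05 in limma). The lowest wild-type array stood far above the highest null array, and DBP2 had the largest difference of the 48. HAS1, which acts in both subunits, was lower by 0.96 on the log2 scale, DBP3 by 0.83 and DRS1 by 0.82. DBP7 fell by 0.58 and DBP6, which acts at the same early stage, fell by 0.50. SPB4 showed the smallest decrease of the helicases, by 0.44.

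The 7 genes for GTPases, the ATPase MDN1 and the Rix1 complex were all lower in the null strain as well, with a median log2 difference of -0.72. RIX1 and IPI3 encode subunits of the complex that takes part in removal of the second internal transcribed spacer and recruits Mdn1. RIX1 read 10.58, 10.49 and 10.57 in wild-type and 9.11, 9.12 and 9.25 in the null strain, a 2.62-fold decrease (log2 difference -1.39 ± 0.19 SE, adjusted p = 1.14e-04 in limma). IPI3 read 9.59, 9.44 and 9.44 in wild-type against 8.32, 8.35 and 8.60 in the null strain (log2 difference -1.07 ± 0.19 SE, adjusted p = 9.13e-04). Neither gene had overlapping arrays, while IPI1, the third subunit, fell less, by 0.66 on the log2 scale. The GTPase gene NOG1 read 11.52, 11.67 and 11.52 in wild-type and 10.61, 10.55 and 10.62 in the null strain (log2 difference -0.97 ± 0.18 SE, adjusted p = 9.29e-04). Its arrays were again separate, and the GTPase genes NOG2 and NUG1 fell by 0.72 and 0.47.

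Among the scaffolding complexes, the 3 Noc genes, whose products accompany early and middle particles, were all lower (median log2 difference -0.83). NOC3 read 10.26, 10.19 and 10.26 in wild-type, and the null strain had 9.37, 9.22 and 9.23 (log2 difference -0.96 ± 0.15 SE, adjusted p = 3.66e-04 in limma). The 6 genes of the Nop7-Erb1-Ytm1 complex and its partners had a median of -0.70, and 4 of them passed. ERB1 and YTM1 each fell by 0.88, while RLP7 at -0.67 and NOP15 at -0.48 did not pass. The 4 genes of the Nsa1 module with SSF1 were all lower, with a median of -0.71. MAK16 of this module read 9.08, 9.11 and 8.99 in wild-type and 8.11, 8.07 and 8.16 in the null strain (log2 difference -0.95 ± 0.21 SE, adjusted p = 0.00356), again without overlap. The methyltransferase genes SPB1 and NOP2 fell by 0.76 and 0.54. Of the pair that brings in the 5S RNP, RRS1 fell by 0.63, and RPF2 at -0.68 did not pass (adjusted p = 0.062).

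Of 8 other nucleolar proteins 7 were lower, with a median log2 difference of -0.61. The RNA-binding protein gene NOP13 read 10.59, 10.57 and 10.52 in wild-type and 9.47, 9.50 and 9.43 in the null strain (log2 difference -1.09 ± 0.22 SE, adjusted p = 0.00201 in limma). NOP12, a related RNA-binding protein, had the smallest decrease among the 41 called genes. It read 11.18, 11.24 and 11.23 in wild-type and 10.81, 10.79 and 10.84 in the null strain (log2 difference -0.40 ± 0.14 SE, adjusted p = 0.0363). The arrays of NOP12 did not overlap, but leaving out any 1 wild-type or null array raised its adjusted p to between 0.0691 and 0.0929.

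Of 6 late, export and shuttling factors 3 were lower in the null strain and 3 did not pass. TMA16, the product of which joins late particles, and ARX1, a shuttling export factor, fell most. TMA16 read 11.59, 11.34 and 11.36 in wild-type against 10.10, 10.25 and 10.29 in the null strain (log2 difference -1.22 ± 0.15 SE, adjusted p = 5.31e-05 in limma). ARX1 read 10.93, 10.79 and 10.74 against 9.59, 9.59 and 9.72 (log2 difference -1.19 ± 0.18 SE, adjusted p = 2.47e-04). Both genes kept their strains apart by about 1 unit on the log2 scale. NMD3, the export adaptor, fell by 0.49. The other genes of the group, TIF6 (an anti-association factor that blocks joining of the subunits), RLP24 (a placeholder for ribosomal protein L24) and NSA2, did not pass. RLP24 differed by -0.42, with a 95% confidence interval of -1.47 to 0.64 that includes the median difference of the 48 genes.

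**Figure D2:**
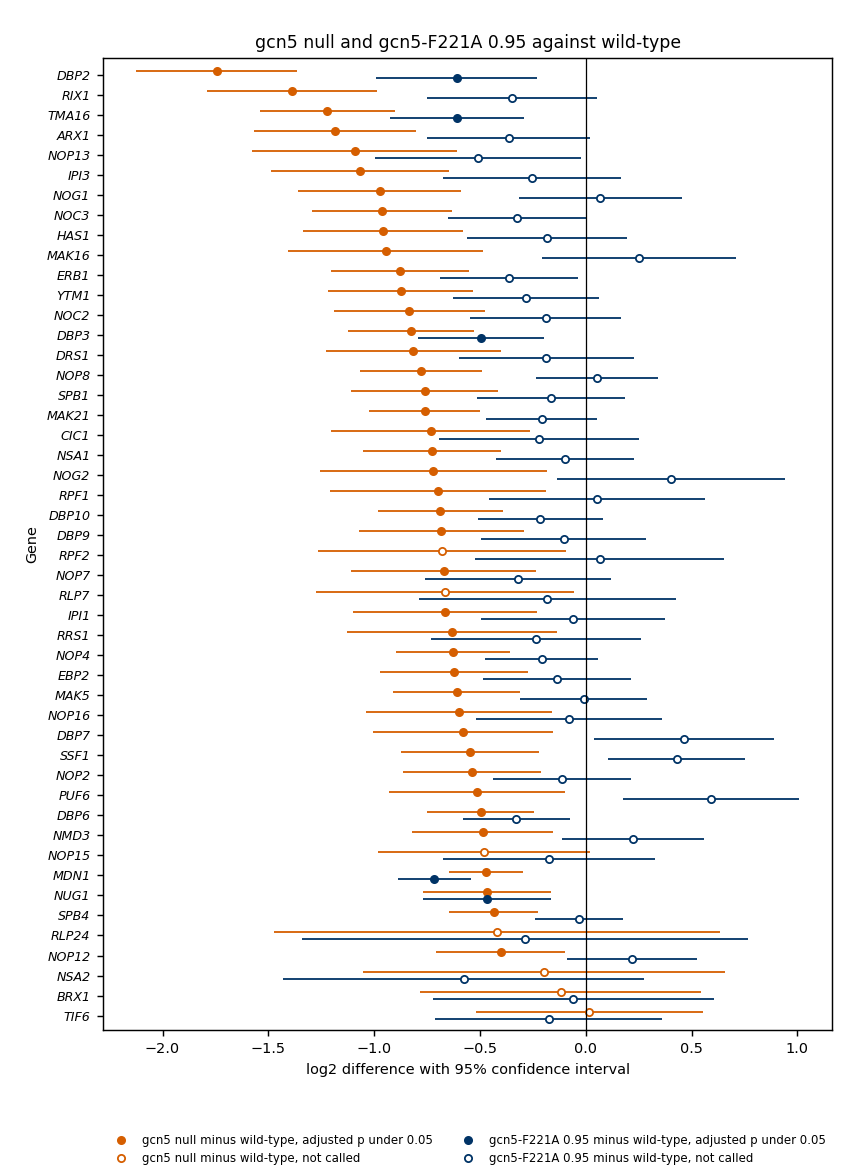
Points give the log2 difference from wild-type of each of 48 genes in the gcn5 null strain (orange) and at strength 0.95 (dark blue), with 95% confidence intervals, and filled points are called in limma. Of 48 genes, 41 orange points and 5 dark blue points are filled, and MDN1 is the gene with a filled dark blue point to the left of its orange one.

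At 0.95, the strongest promoter, 5 members were lower than wild-type (NUG1, DBP2, DBP3, MDN1 and TMA16), against 5.23% of all genes, none was higher, against 7.25%, and the median log2 difference was -0.18. Array weights raised the count to 24 (18 lower and 6 higher), and a fit with only the wild-type and 0.95 arrays to 15 (12 lower and 3 higher). No share of all genes is given for these 2 settings. The weight of 0.95 replicate 2 was 7.81, against 0.45 and 1.07 for replicates 1 and 3. A total of 19 members had all 3 arrays below wild-type, against 18.3% of all genes, and 5 had all 3 above it, against 20.5%. All 5 members called lower were also lower in the null strain, as were 174 of the 285 genes called lower at 0.95. MDN1 was called in all 15 fits that left out 1 array, TMA16 in 12, DBP3 in 9, DBP2 in 5 and NUG1 in 3. The count of 5 was 1 without wild-type replicate 1 or without 0.95 replicate 2. It was 2 without wild-type replicate 2 or 3, 0.95 replicate 1 or 3, or null replicate 2, and 3 without 0.32 replicate 1 or null replicate 1 or 3. Without 0.68 replicate 1 it was 15, of which 3 were higher.

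Tested directly, 32 members were higher at 0.95 than in the null strain, against 19.5% of all genes. MDN1 was the 1 member that was lower, against 13.6% of all genes, and 15 members did not pass. The median difference was 0.59, and in 40 members all 3 arrays at 0.95 lay above all 3 null arrays, which held for 31.2% of all genes. Both this comparison and that of the null strain with wild-type use the same 3 null arrays, so they are not independent. All 32 were among the 41 that fell in the null strain. Over all genes, 796 of the 1063 that were higher at 0.95 than in the null strain had fallen there. Of the 33 calls, 24 held in all 15 fits without 1 array.

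DBP2 read 12.10, 12.41 and 12.51 at 0.95, below every wild-type array and above every null array (0.95 minus null 1.13 ± 0.18 SE, adjusted p = 3.72e-04 in limma). TMA16 took a like middle place with 10.92, 10.79 and 10.76 (0.61 ± 0.15 SE above the null strain, adjusted p = 0.00642). ARX1 at 10.40, 10.47 and 10.50, NOC3 at 9.84, 9.90 and 9.99 and IPI3 at 9.23, 9.22 and 9.25 also lay between the wild-type and null arrays. Each of the latter 3 was higher than in the null strain (log2 differences 0.82, 0.64 and 0.81), and their differences from wild-type did not pass (-0.36, -0.32 and -0.25). NOP13 read 9.97, 9.99 and 10.20, and its difference of 0.58 from the null strain missed the threshold (adjusted p = 0.0626).

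RIX1 at 10.13, 10.18 and 10.29 likewise lay between its wild-type and null arrays at 0.95. Other genes reached the wild-type arrays at 0.95, or lay above them. NOG1 came to 11.50, 11.68 and 11.73, overlapping its wild-type arrays. RIX1 and NOG1 each exceeded the null strain by 1.04 on the log2 scale (adjusted p = 9.79e-04 and 7.31e-04 in limma). MAK16 read 9.33, 9.23 and 9.38 at 0.95, above its 3 wild-type arrays, and showed the largest difference from the null strain of all members (1.20 ± 0.21 SE, adjusted p = 9.38e-04). NOP12 at 11.45, 11.44 and 11.41 was also above all its wild-type arrays and 0.62 above the null strain. In SSF1, DBP7 and PUF6, a translational repressor that also joins the pre-60S particle, all arrays at 0.95 lay above wild-type too, with log2 differences of 0.43, 0.46 and 0.59 (adjusted p = 0.0841, 0.149 and 0.0627). The same 5 genes had all 3 arrays above wild-type at 0.32 as well, by 0.47 for NOP12, 0.42 for SSF1, 0.22 for MAK16, 0.53 for DBP7 and 0.69 for PUF6, and none of these passed. At 0.32 a total of 10 members had all 3 arrays above wild-type, against 9.76% of all genes. The comparisons at 0.32 and 0.95 share the wild-type arrays.

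MDN1 followed another order of strains. The gene encodes the dynein-like AAA ATPase that strips Ytm1 and other factors from the particle. It read 13.40, 13.39 and 13.41 in wild-type, 13.35, 13.24 and 13.30 at 0.32, 13.17, 13.08 and 12.89 at 0.68, and 12.58, 12.70 and 12.78 at 0.95. The null arrays stood at 12.90, 12.92 and 12.97, above all 3 arrays at 0.95 and below all 3 at 0.32. The difference from wild-type was -0.72 ± 0.08 SE at 0.95 (adjusted p = 1.74e-04 in limma) and -0.47 ± 0.08 SE in the null strain (adjusted p = 5.56e-04). The difference of 0.95 from the null strain was -0.24 (adjusted p = 0.0313), and it was called in 10 of 15 fits without 1 array, with a highest adjusted p of 0.123. MDN1 was also the 1 member lower at 0.95 than at 0.32 (log2 difference -0.61, adjusted p = 0.00298), in a comparison where 1.25% of all genes were lower. In that comparison 24 members had all 3 arrays at 0.95 below those at 0.32, against 12.7% of all genes. At an unadjusted p under 0.05, 10 members were lower, with no share of all genes given for that threshold. Array weights gave 14 members, and a fit with only the arrays at 0.32 and 0.95 gave none. The count of 1 rose to 8 without 0.68 replicate 1 and to 2 without 0.68 replicate 3.

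NUG1, the gene of a GTPase of middle particles, had about the same level in both strains. It read 12.01, 12.05 and 11.86 in wild-type, 11.42, 11.54 and 11.56 at 0.95 and 11.50, 11.46 and 11.55 in the null strain. The difference from wild-type was -0.47 in each, with adjusted p of 0.0468 and 0.018 in limma, and the difference between them had a 95% confidence interval of -0.30 to 0.30.

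**Figure D3:**
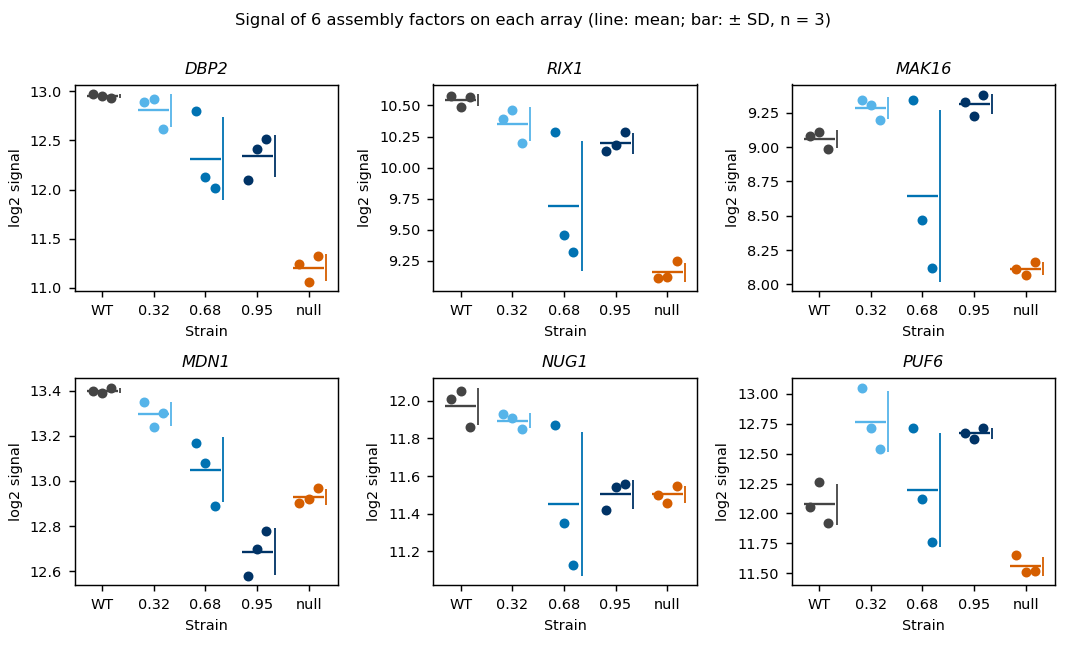
Each panel shows one gene, with the log2 signal of every array by strain, the mean (line) and the SD (bar, n = 3). MAK16 and PUF6 lie above wild-type at 0.95 and lowest in the null strain, DBP2 and RIX1 take a middle place at 0.95, NUG1 is level at 0.95 and in the null strain, and MDN1 is lowest at 0.95.

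The weakest promoter gave no call. At 0.32 none of the 48 genes was lower or higher than wild-type in limma, against 0.165% of all genes lower and 1.43% higher. At an unadjusted p under 0.05, 5 members were higher, with no share of all genes given for that threshold. The median log2 difference was 0.02, with 23 members below and 25 above wild-type. Array weights raised the number of higher members to 4, and 5 were higher without 0.68 replicate 1 and 2 without 0.68 replicate 3.

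At strength 0.68 the 3 arrays disagreed. Of 48 members 14 were lower than wild-type, against 7.05% of all genes, with a median log2 difference of -0.42, and 15 members had all 3 arrays below wild-type, against 15.9% of all genes. The median shift of the 48 genes from the wild-type mean was 0.04 on array 1, -0.63 on array 2 and -0.73 on array 3. On the null arrays it was -0.66, -0.73 and -0.69, and on the 0.95 arrays -0.29, -0.17 and -0.06. By this median array 1 lay with wild-type, and arrays 2 and 3 lay with the null strain. Single members on array 1 went both ways, with 15 below all 3 wild-type arrays and 20 above all 3. On arrays 2 and 3, 46 and 45 members were below all 3 and 0 above. No share of all genes is given for these counts. Array 1 held the highest value of the 3 in all 48 members, but in 35.3% of all genes.

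The disagreement was larger among the assembly factors than elsewhere on the array. At 0.68 the median SD of the members was 0.455, against 0.181 for all genes, while in the other strains the members' median SD was between 0.077 and 0.124. DBP2 read 12.80, 12.13 and 12.02 on the 3 arrays, RIX1 10.29, 9.46 and 9.32, and MAK16 9.34, 8.47 and 8.12. Array 1 was nearest to wild-type in each of these. Arrays 2 and 3 lay between the wild-type and null ranges in DBP2 and RIX1, and array 3 reached the null range in MAK16. IPI3 at 9.28, 8.64 and 8.19 and NOP13 at 10.53, 9.46 and 9.35 repeated the pattern. TMA16 at 10.93, 10.84 and 10.26 and MDN1, quoted above, were lower than wild-type on all 3 arrays. GCN5 itself read 12.07, 11.88 and 11.76 on the same arrays. A control for RNA integrity, the mean log2 signal of 5′ minus 3′ probe sets of 8 control genes, was -2.69 on array 1, -3.47 on array 2 and -2.66 on array 3. The part of this control in the split was not tested.

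The count of 14 rested on single arrays. It rose to 43 without 0.68 replicate 1, and fell to 3 without 0.68 replicate 2 and to 1 without 0.68 replicate 3, while leaving out a wild-type array gave 0 for replicate 1, 2 for replicate 2 and 6 for replicate 3. It was 9 without 0.95 replicate 2. With only the wild-type and 0.68 arrays in the fit no member passed, and with array weights 40 did. None of the 14 was called in all 15 fits, and TMA16 was called in 14 of them.

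**Figure D4:**
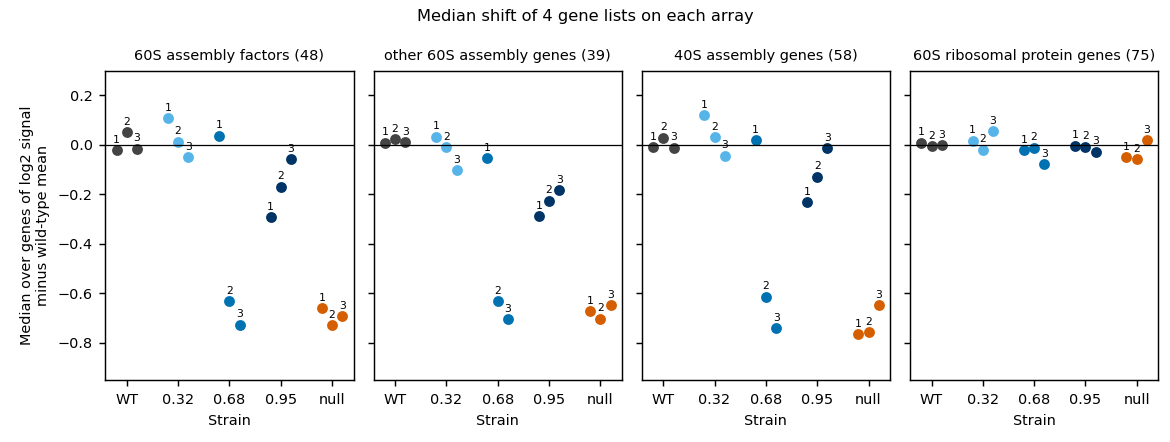
Points give, for each array, the median over a gene list of the log2 signal minus the gene's wild-type mean, with the replicate number above each point. Array 1 at 0.68 is at 0.04 for the 60S assembly factors and arrays 2 and 3 are at -0.63 and -0.73, close to the null arrays, and the other assembly genes show the same split.

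A slope of the log2 signal over promoter strength, with wild-type at 0, was negative in 44 members and passed in 10 (NOP13, NOC3, NUG1, ERB1, DBP2, DBP3, DBP6, MDN1, ARX1 and TMA16), against 7.27% of all genes with a negative slope that passed. The median slope was -0.32 log2 units for a change of strength from 0 to 1, against -0.006 over all genes. The steepest was that of TMA16 (-0.81 ± 0.14 SE, adjusted p = 0.00354 in limma), followed by MDN1 (-0.74 ± 0.08 SE, adjusted p = 1.55e-04), DBP2 (-0.74 ± 0.17 SE, adjusted p = 0.014), NOP13 (-0.70), ARX1 (-0.59) and NUG1 (-0.59). TMA16, MDN1 and DBP2 were called in all 15 fits without 1 array, whereas NOP13 and NOC3 were called in 1 of them each. All 10 were lower in the null strain, as were 283 of the 396 genes with a negative slope that passed. The remaining 31 of the 41 genes lower there (75.6%) had no slope that passed, near the share of all genes lower in the null strain without a slope that passed, 75%. Array weights gave 37 slopes that passed, and a fit without the null arrays gave 6. The count of 10 was 29 without 0.68 replicate 1. Wild-type arrays lowered it too, to 4 when replicate 1 was left out, 3 when replicate 2 was and 6 when replicate 3 was. It was 5 without 0.95 replicate 1 and 6 when either of the other arrays at 0.95 was left out.

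By role, a slope passed in 3 of 10 helicases, 2 of 7 genes of the GTPase and Rix1 group, 2 of 6 late factors, 1 of 3 Noc genes, 1 of 6 genes around Nop7 and 1 of 8 other nucleolar genes. None passed in the Nsa1 module, the methyltransferases or the 5S RNP pair. The mean fell at every step of strength in 2 members, DBP3 and MDN1, and in 5.65% of all genes. In 44 members the mean at 0.68 was below that at 0.95, as in 56% of all genes. DBP3, a helicase for early cleavage of the precursor, had arrays of 11.74, 11.88 and 11.71 in wild-type, 11.79, 11.72 and 11.46 at 0.32, 11.68, 11.19 and 11.15 at 0.68 and 11.09, 11.33 and 11.43 at 0.95. The ranges of neighbouring strengths overlapped, and those of wild-type and 0.95 did not.

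Most members varied together across the arrays. The correlation of a member with the mean of the other 47 over 15 arrays, given as a description because the arrays of a strain share their treatment, had a median of 0.93 and was above 0.9 in 29 members. The lowest values were 0.15 for NSA2, 0.16 for TIF6, 0.41 for RLP24, 0.46 for BRX1 and 0.48 for MDN1. In RLP24 the 0.32 arrays read 12.78, 12.65 and 10.84, and the 0.95 arrays 11.68, 12.55 and 12.84. NSA2 read 12.32, 12.27 and 10.78 at 0.32 and 11.25, 11.99 and 12.36 at 0.95. Array 3 at 0.32, array 2 at 0.68 and array 1 at 0.95 were the low ones in both genes.

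These arrays also had the lowest 5′ minus 3′ control of their strain, at -3.97, -3.47 and -3.44. In 6 of the 48 members (BRX1, RLP7, RLP24, TIF6, DBP9 and NSA2) the array with the lowest control held the gene's lowest signal in all 5 strains. This was so in a like share of all genes, 12.3%, and does not set the members apart. BRX1, a nucleolar factor of early particles, read 12.65, 13.16 and 13.06 in wild-type, 12.10 on array 2 at 0.68 against 13.45 and 12.83 on the others, and 13.01, 12.80 and 12.71 in the null strain. TIF6 read 12.12, 12.42 and 12.28 in wild-type and 12.47, 12.28 and 12.12 in the null strain. NSA2 read 12.11, 12.63 and 12.60 in wild-type and 12.34, 12.22 and 12.18 in the null strain. For these 3 genes the strains overlapped, and the 95% confidence interval of the null difference was -0.78 to 0.55 for BRX1, -0.52 to 0.55 for TIF6 and -1.05 to 0.66 for NSA2. Those intervals include the median difference of the 48 genes for BRX1 and NSA2, and not for TIF6. The mean control was -3.44 ± 0.22 (SD, n = 3) in wild-type, lower than in the null strain with -2.90 ± 0.22, and its part in the results was not tested.

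**Figure D5:**
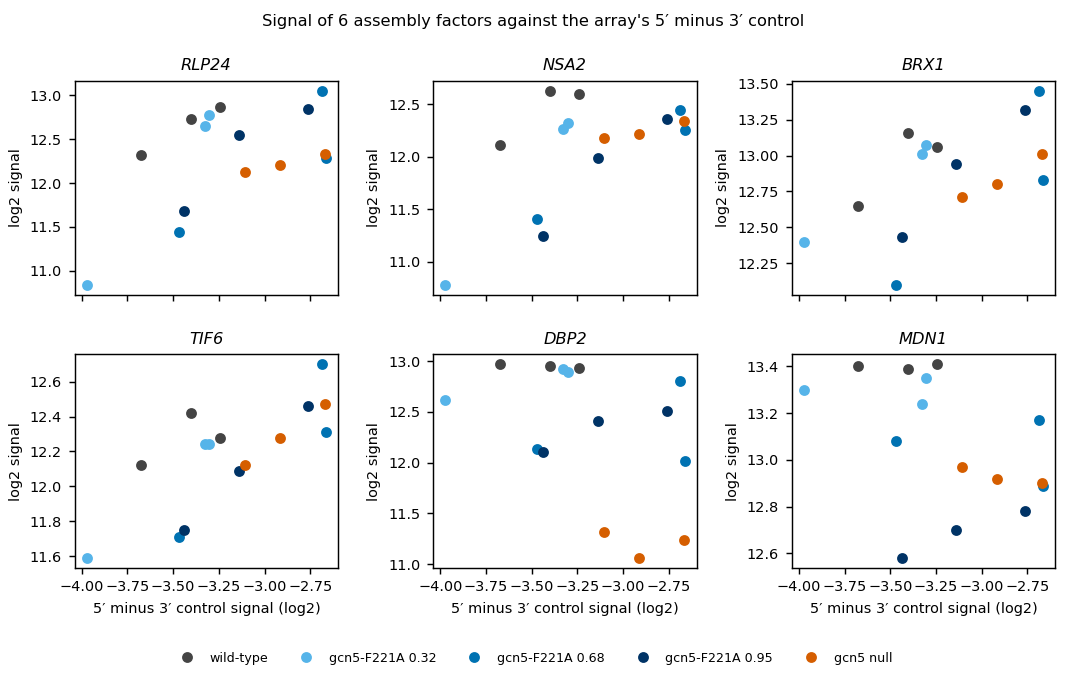
Each point is one of 15 arrays, with the 5′ minus 3′ control on the horizontal axis and the log2 signal of one gene on the vertical axis, coloured by strain. RLP24, NSA2, BRX1 and TIF6 are lowest on the array with the lowest control (-3.97) or on the arrays at -3.47 and -3.44, while DBP2 is lowest in the null strain and MDN1 at 0.95.

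Genes of related function were compared with the members through lists. Of 39 measured further genes of 60S assembly, 29 were lower in the null strain, against 22.6% of all genes, and none was higher, against 18.4%. The median log2 difference was -0.68. At 0.95, 5 were lower than wild-type, against 5.23% of all genes, and 1 was higher, against 7.25%. A total of 20 were higher at 0.95 than in the null strain, against 19.5% of all genes. The largest decreases were those of ECM1, a shuttling export factor, at -1.35, REI1, a cytoplasmic recycling factor that acts on Arx1, at -1.34, and CGR1 at -1.33. A slope passed in 15 of the 39, all negative, against 7.27% of all genes with a negative slope that passed. Of 58 genes for assembly of the 40S subunit, 46 were lower in the null strain (median -0.72), against 22.6% of all genes. At 0.68, 22 were lower, against 7.05% of all genes. At 0.95, 5 (8.62%) were lower, against 5.23% of all genes, and 1 was higher, against 7.25%. A total of 41 were higher at 0.95 than in the null strain, against 19.5% of all genes.

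Few genes for the proteins that the factors assemble were called. Of 75 genes for 60S ribosomal proteins, 2 were lower in the null strain, none was called at any promoter strength, and the median null difference was -0.03. The array leaves little room above them, since 48 of the 75 had a mean signal above 14, where the highest of all genes was 14.8, and no member had one above 14. How well signals so near the top can show a decrease was not tested. RPL24A and RPL24B, for the protein whose site Rlp24 holds, differed by -0.01 and -0.05 in the null strain, and RPL7A, related to RLP7, by 0.06. SSF2, the paralog of SSF1, differed by -0.08 (adjusted p = 0.725 in limma), where SSF1 fell by 0.55.

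Of 10 regulators of ribosome biogenesis genes, 4 were lower in the null strain and 1 was higher, against 22.6% and 18.4% of all genes. TOD6, a repressor that binds a promoter element of these genes, fell by 1.15 on the log2 scale (adjusted p = 0.00128 in limma), and its paralog DOT6 by 0.32 (adjusted p = 0.0173). The nutrient-signalling kinase gene SCH9 fell by 0.68 and RAP1, an activator of ribosomal protein genes, by 0.49. STB3, a repressor of ribosome biogenesis genes, was higher by 0.50 (adjusted p = 0.00358). At 0.95 RAP1 was again lower, by 0.50 (adjusted p = 0.00151), and the others did not pass. TOD6 read 9.32, 8.31 and 8.35 on the 0.68 arrays, 9.18, 9.16 and 9.25 in wild-type and 8.14, 8.12 and 7.89 in the null strain. Array 1 was thus the 0.68 array nearest to wild-type in this gene.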

How the data were processed

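Log2 signals were used as deposited: the authors made them by RMA (background correction, quantile normalization and summary) from Affymetrix Yeast 2.0 arrays. The brightest of a gene's probe sets was kept for 5449 genes, and each member had 1. Strain means were estimated from all 15 arrays in one linear model (limma 3.58.1, R 4.3.3). All strains shared a single estimate of spread per gene, so every standard error and p-value of the main fit includes the spread at 0.68. The 7 comparisons were each adjusted over all genes, with a threshold of 0.05. The median 95% half-width of a difference was 0.27, and 3 arrays per strain limit the precision. Plots used matplotlib 3.10.9.

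The members, gene lists and alternatives were chosen with earlier results of these data known. Genes named with their arrays were the 8 called members with the largest null difference, the 4 members with the smallest, up to 6 with the steepest slope that passed, members called against the majority, and the brightest and dimmest in wild-type. Others were examples of their role group, the regulators, 3 other 60S genes and paralogs. DBP3, PUF6, SSF1, DBP7 and RLP24 were given with values after these had been seen.

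Whether replicate numbers pair the arrays was checked. The alternatives were the average over probe sets, removal of dim genes (mean under 5.18, which 95% of S. pombe probe sets did not exceed), 2 normalizations, trend and robust moderation, array weights, fewer arrays in the fit, a replicate block, unadjusted p-values, ranked strengths and fits without 1 array. The fit was also run on simulated data with independent noise and a single spread per gene in all strains. That run cannot show how the fit handles members that vary together or the larger spread at 0.68. Promoter and protein sequences were not used here.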

Additional observations from a re-analysis of the deposited data

Results flagged for a closer look

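By a direct test the null strain and strength 0.95 differed in 33 of the 48 assembly factors, against 33.1% of all genes. Of these, 32 were higher at 0.95 than in the null strain, against 19.5% of all genes, and 1 was lower, against 13.6%. In all 15 fits without 1 array 24 of the 33 calls held, and the call of MDN1 held in 10 of them. In log2 units, 0.95 minus the null strain was 1.20 for MAK16, 1.13 for DBP2, 1.04 for RIX1, 1.04 for NOG1, 0.82 for ARX1, 0.81 for IPI3, 0.64 for NOC3, 0.62 for NOP12 and 0.61 for TMA16, and -0.24 for MDN1. With 3 arrays per strain, single arrays were not tested as outliers.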

How the results depend on the processing

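The null count (41) and the count of 0.95 against the null strain (33) stayed within 1.5 times under every alternative run. They came to 29 to 45 and 24 to 43. No named member's null difference or slope changed sign where it passed in the main fit or in the alternative. Changes of sign in values that passed in neither fit were not counted. Replicate numbers did not pair the arrays: with strain means removed, 5 of 15 arrays correlated best with their own number, and the mean correlation was -0.070 for the same number and 0.041 for others. With the replicate number as a block the counts were 40 (null), 0 (0.32), 11 (0.68), 3 (0.95, of which 1 higher), 8 (slope), 31 (0.95 against null, where MDN1 was no longer lower) and 1 (0.95 against 0.32). Array weights gave 4 members at 0.32, 40 at 0.68, 24 at 0.95, 37 for the slope and 14 for 0.95 against 0.32. Fits with only the arrays compared gave 0 at 0.68, 15 at 0.95, 6 for the slope and 0 for 0.95 against 0.32. Unadjusted p-values gave 5, 29, 11, 19 and 10 for 0.32, 0.68, 0.95, the slope and 0.95 against 0.32. No share of all genes is given beside any count under an alternative, here or above. Leaving out 1 array gave 29 to 44 (null), 0 to 5 (0.32), 0 to 43 (0.68), 1 to 15 (0.95), 3 to 29 (slope), 24 to 38 (0.95 against null) and 1 to 8 (0.95 against 0.32), with the highest count of each without 0.68 replicate 1. Of 360 checks of 15 named members in the null strain, 350 kept their side of the threshold and 10 (NOP12 and NUG1) did not pass; of 375 for the slope, 317 kept it, 48 no longer passed and 10 newly passed. Rescaling left the members' median null difference at -0.64 to -0.66. The cause of these changes was not tested. Signal over background was no limit, as every member was brighter than the S. pombe probe sets' 95th percentile, and precision is set by 3 arrays per strain.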
